A study of Mus musculus with 4 samples.

Results

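The type 2 cytokine genes Il4, Il5, Il9, Il13 and Il31, the receptor genes Il4ra, Il13ra1, Il13ra2 and Il5ra, and Gata3, the transcription factor of type 2 lymphocytes, were followed across 4 single-colour microarrays of mouse bronchial epithelial cells. They were chosen by name. All 10 genes were on the array, with 11 probes in 20 spots, among 28663 genes or transcripts with a name. Each array held 1 group: wild-type (Pla2g3+/+) control cells, control cells labelled Pla2g3-/-, wild-type challenged cells and challenged cells labelled Pla2g3-/-. Pla2g3 encodes a secreted phospholipase A2. Per the labels' protocols, mice were sensitised to the protein ovalbumin (10 µg with 1.3 mg of alum, on days 0 and 14) and challenged with a 1% ovalbumin aerosol for 30 min on days 26, 27 and 28. Lungs were taken 3 h after challenge, and RNA from 4 samples was pooled for each array. The strain and age of the mice, and the treatment of control mice, are not given in the sources used here.

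IL-4, IL-5, IL-9 and IL-13 are made mainly by T helper 2 cells and by group 2 innate lymphoid cells, and IL-4 also by basophils and mast cells. They are best known in the airway for driving IgE production, eosinophil growth and recruitment, and mucus production by the epithelium. IL-4 and IL-13 signal through receptors that share the IL-4 receptor alpha chain (Il4ra) and activate STAT6. IL-5 uses its own alpha chain (Il5ra) together with the common beta chain (Csf2rb). Gata3 opens and activates the locus that holds Il4, Il13 and Il5.

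Levels are intensity units of the scanner's processed signal, and differences are log2 values after each array was set to its own 75th percentile. That percentile lay between 1808 and 1986 units, and 78.7% to 81.5% of probes were well above background by the scanner's own call. With 1 array per group there is no replicate error for a pair of arrays, so a difference of at least 2-fold was counted and no p-value is given for it. A signal not well above background on 1 array gives only a bound ("at least"). It was taken against the higher of its own reading and the lowest signal well above background on that array. The errors printed beside differences are the scanner's own error for the spots and do not cover animals or cell preparations. The probe chosen for Pla2g3 read 239 units on the wild-type control array, 2023 on the control array labelled Pla2g3-/-, 254 on the wild-type challenged array and 4154 on the challenged array labelled Pla2g3-/-. A second probe, at 44.1, 177, 13.1 and 336 units in the same order, was also brighter on the arrays labelled Pla2g3-/-. Both go against the labels. The sources used here do not say whether either lies in the deleted part of the gene, so every direction below is that of the array as labelled.

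The probes behind the values that the results turn on are identified by their first 30 bases, 5′ to 3′, as the deposited files give them. The mm9 positions of the whole probes, from the same files, follow each name. The 2 Il4ra probes are shown together since their values disagreed in part, and no exon or UTR is named because no annotation of that build was used here.

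Il4, chr11:53426076-53426135: gtccaagtccacatcactgaaagacttcct
Il13, chr11:53444828-53444887: tcactgaacaaacttttcattgactgtcaa
Il5, chr11:53538468-53538527: cccccagtttactccaggaaaaacagatgt
Il4ra, brighter, chr7:132722922-132722981: acctgttgggaattccaaccctcaccagtc
Il4ra, dimmer, chr7:132712550-132712609: atcccgaggaacagtgccagcactgtgtgt
Gata3, chr2:9779551-9779610: ttaaggaatatagggggattaaagtatgga

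Il5, Il13, Il4 and Il9 were all brightest on the challenged array labelled Pla2g3-/-. Il5 and Il13 were not well above background on either control array and were above it on both challenged arrays, and Il9 was above background on the challenged array labelled Pla2g3-/- alone. Il31, a cytokine of T helper 2 cells linked to itch, was not well above background on any of the 4 arrays. It read 5.17, 4.55, 1.79 and 6.17 units.

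**Figure D1:**
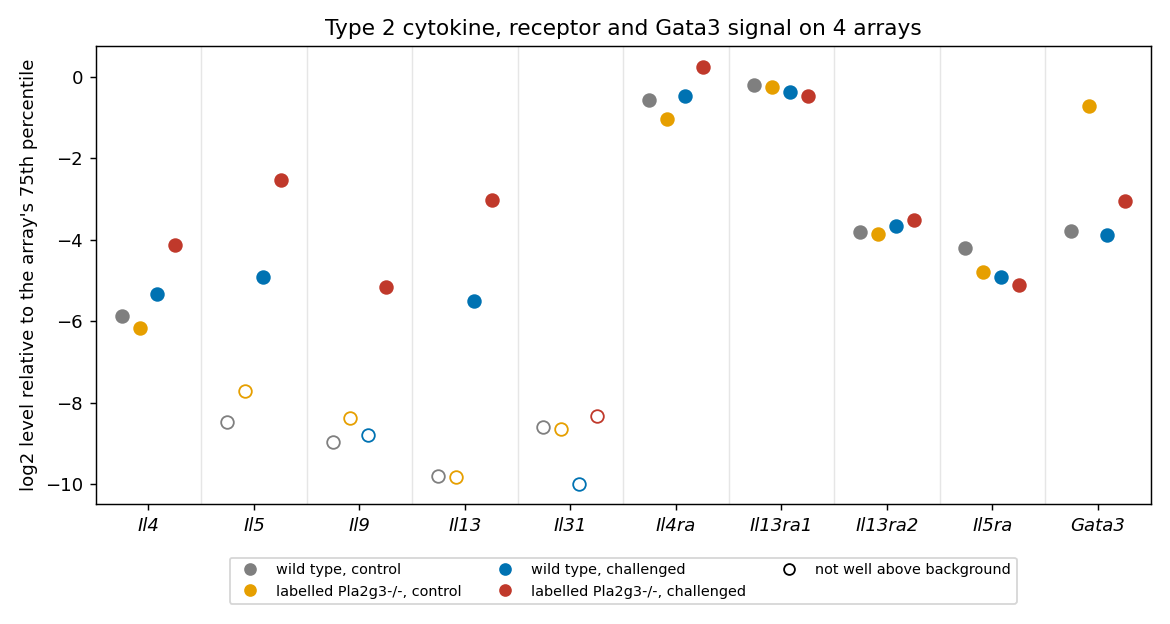
Each point is the log2 level of 1 gene on 1 array, relative to that array's 75th percentile (y axis), for the 10 genes (x axis); open points were not well above background. Il4, Il5, Il9 and Il13 are highest on the challenged array labelled Pla2g3-/-, and Gata3 is highest on the control array labelled Pla2g3-/-. Levels are compared within a gene, since probes differ in brightness.

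Il5, the growth and survival factor of eosinophils, read 5.57 units in wild-type control cells and 8.71 in control cells labelled Pla2g3-/-, neither well above background. It read 59.6 in wild-type challenged cells and 344 in challenged cells labelled Pla2g3-/-. The wild-type challenge difference was at least 6.78-fold (2.76 on the log2 scale), and that in cells labelled Pla2g3-/- at least 36.3-fold (5.18). Between the challenged arrays, where both signals were measured, Il5 was 5.27-fold higher in cells labelled Pla2g3-/- (2.40 ± 0.21 on the log2 scale, scanner error).

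Il13, the cytokine that drives goblet cell change and airway hyperreactivity, read 2.22 units in wild-type control cells and 2.02 in control cells labelled Pla2g3-/-, neither well above background. Its signal was 40.2 units in wild-type challenged cells and 242 in challenged cells labelled Pla2g3-/-. The challenge differences were at least 4.56-fold (2.19 on the log2 scale) in wild type, and at least 25.5-fold (4.68) in the cells labelled Pla2g3-/-. Between the challenged arrays the difference was 5.51-fold (2.46 on the log2 scale). Il13 and Il5 thus differed between the challenged arrays by nearly the same amount: their log2 differences lay 0.07 apart, with a scanner error of 0.30 on that gap.

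Il9, a cytokine that acts on mast cells and mucus-producing cells, read 4.0, 5.56 and 4.08 units on the wild-type control array, the control array labelled Pla2g3-/- and the wild-type challenged array, none well above background. It read 55.7 in challenged cells labelled Pla2g3-/-. It was therefore at least 5.87-fold higher there than in the control cells of the same label (2.55 on the log2 scale) and at least 6.37-fold higher than in wild-type challenged cells (2.67). For wild type, no challenge difference could be given.

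Il4, which drives T helper 2 differentiation and IgE switching, was the only one of the cytokines measured above background on all 4 arrays. Averaged over its spots it read 37.3 units in wild-type control cells, 29.8 in control cells labelled Pla2g3-/-, 46.1 in wild-type challenged cells and 113 in challenged cells labelled Pla2g3-/-. The reading was 4.05-fold higher with challenge in cells labelled Pla2g3-/- (2.02 ± 0.23 on the log2 scale, scanner error) and 1.45-fold higher in wild type (0.54 ± 0.23). Challenged cells labelled Pla2g3-/- were 2.28-fold above wild-type challenged cells (1.19 on the log2 scale). The challenge differences themselves lay 1.48 apart on the log2 scale.

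The Il4 probe is printed 10 times on each array, which shows how far its spots repeat. Of these spots, 3 lie close together on the array and were brighter than the 7 others on all 4 arrays. On the wild-type control array they read 59.9 to 68.6 units against 21.9 to 29.8 for the others, and on the challenged array labelled Pla2g3-/- 127 to 143 against 96.7 to 106. The values of the 7 other spots did not overlap between any 2 arrays except the controls. Over those 7 spots the challenge difference was 2.42 ± 0.16 in cells labelled Pla2g3-/- (SD over 6 spots, since 1 was an outlier by the scanner) and 0.73 ± 0.20 in wild type (SD over 7 spots). Over the 3 close spots it was 1.17 and 0.07. The difference between the challenged arrays was 1.24 over the 7 spots and 1.03 over the 3. Of 399 probes printed as often, 108 and 114 were detected at 20 to 400 units in the challenge comparisons of wild type and of the other label. Their SD between spots had a median of 0.09 in both, with 95th percentiles of 0.27 and 0.25. Over all its spots Il4 had SDs of 0.37 and 0.64, above those percentiles. Spots of 1 array repeat the measurement of 1 RNA pool and are not biological replicates.

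**Figure D2:**
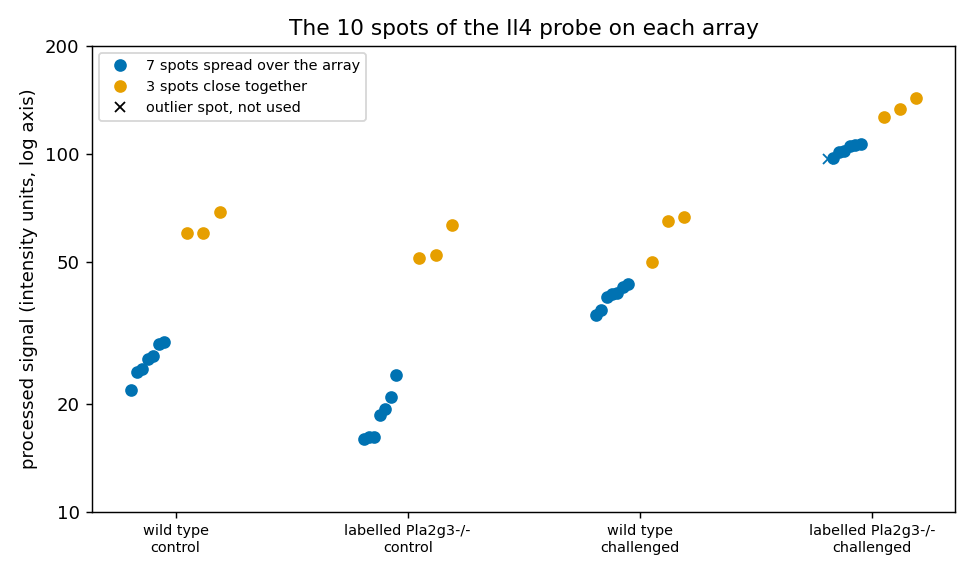
The processed signal of each of the 10 spots of the Il4 probe (y axis, log scale, intensity units) on each array (x axis), with 3 spots that lie close together in orange and the 7 others in blue; a cross is an outlier spot left out. Both kinds of spot are brightest on the challenged array labelled Pla2g3-/-, and the 3 close spots span a smaller range between arrays.

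The values of the dim cytokines depend on how background is treated. A background correction that adds 50 units before the log (normexp), which by construction shrinks differences of dim probes, put the Il4 challenge difference in cells labelled Pla2g3-/- at 0.87 and the gap between challenged arrays at 0.60, both under 2-fold. It put Il9 at least 0.62 and 0.70 higher in the same comparisons and Il13 at least 0.84 higher on challenge in wild type. These are bounds that lie under 2-fold, and the differences themselves may be larger. Il5 and Il13 kept 1.69 and 1.52 between the challenged arrays, and at least 2.61 and 2.20 on challenge in cells labelled Pla2g3-/-.

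Of the receptor genes, Il4ra alone reached 2-fold in any of the 4 pairs of arrays. One of the 2 probes of Il4ra, the chain shared by the receptors of IL-4 and IL-13, read 1346, 899, 1296 and 2343 units on the wild-type control array, the control array labelled Pla2g3-/-, the wild-type challenged array and the challenged array labelled Pla2g3-/-. It was 2.42-fold higher on challenge in cells labelled Pla2g3-/- (1.27 on the log2 scale) and differed by 0.08 in wild type. The dimmer second probe, 10.4 kb away on the mm9 build, read 51.4, 62.3, 62.4 and 102 units, with challenge differences of 0.60 and 0.42. The probes disagreed in sign between the control arrays, at −0.47 for the brighter and 0.39 for the dimmer. Averaged over both probes the challenge difference in cells labelled Pla2g3-/- was 0.93, under 2-fold. Both probes were highest on the challenged array labelled Pla2g3-/-.

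Il13ra1, which pairs with Il4ra to form the receptor of both IL-4 and IL-13 on epithelium, read 1715, 1544, 1387 and 1416 units in the same order of arrays. Its 4 differences between pairs of arrays lay between −0.24 and −0.04. Il13ra2, the decoy receptor of IL-13 and a gene that IL-13 induces in many cells, read 143, 126, 143 and 174 units. Its differences ran from −0.06 to 0.35, and the highest was on challenge in cells labelled Pla2g3-/-. None of these reached 2-fold.

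Il5ra, the IL-5 receptor chain of eosinophils and some B cells, read 108 units in wild-type control cells and between 57.3 and 66.5 units on the other 3 arrays. With challenge it differed by −0.71 in wild type, and by −0.32 in the cells labelled Pla2g3-/-. Eosinophil markers were low throughout: over a list of 9 genes that holds Il5ra, the summed level in multiples of the 75th percentile ran from 0.280 to 0.364. Epx and Prg3, which encode eosinophil granule proteins, were not well above background on any array. Prg2, the eosinophil major basic protein, read 21.2, 36.9, 8.12 and 19.4 units, and only its reading in wild-type challenged cells was not well above background. The B cell markers Ms4a1 and Cd79a had the same high array as Il5ra. Ms4a1, which encodes CD20, read 2812 units in wild-type control cells and 929, 869 and 1125 on the other 3 arrays, and Cd79a, a B cell receptor chain, 1144 and then 371, 395 and 441. Both were chosen after their values were seen. Their part in the Il5ra values was not tested.

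Gata3 followed another order than the cytokines. It read 144 units in wild-type control cells, 1122 in control cells labelled Pla2g3-/-, 122 in wild-type challenged cells and 238 in challenged cells labelled Pla2g3-/-. Control cells labelled Pla2g3-/- were 8.45-fold above wild-type control cells (3.08 ± 0.21 on the log2 scale, scanner error) and 5.09-fold above the challenged cells of the same label (a challenge difference of −2.35). In wild type the challenge difference was −0.10. Challenged cells labelled Pla2g3-/- were 0.83 above wild-type challenged cells, under 2-fold. Set against the wild-type control array instead of its own, the challenged array labelled Pla2g3-/- was 0.73 higher, so the direction of the Gata3 challenge difference there rests on 1 control array.

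T cell markers moved with Gata3. The summed level of 14 T cell markers was 7.21 in wild-type control cells, 37.7 in control cells labelled Pla2g3-/-, 5.34 in wild-type challenged cells and 7.49 in challenged cells labelled Pla2g3-/-. That of 10 markers of developing T cells, among them Rag1 and Ptcra, was 1.12, 22.4, 0.742 and 1.55 in the same order. All 10 of the latter and 11 of 14 of the former were at least 2-fold higher in control cells labelled Pla2g3-/- than in wild-type control cells, with medians of 4.0 and 2.85. The share over all genes was 3.19%. Their part in the Gata3 values was not tested. Airway epithelial markers were above background on all 4 arrays for 12 of 12 genes, summed to between 643 and 741, and none differed 2-fold in any of the 4 comparisons. Over all genes, 1.68% to 3.85% differed in each direction. In such pooled RNA, more cells of a type and more RNA per cell cannot be told apart. Il5 and Il13 were not well above background on the array where Gata3 and the T cell markers were highest.

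**Figure D3:**
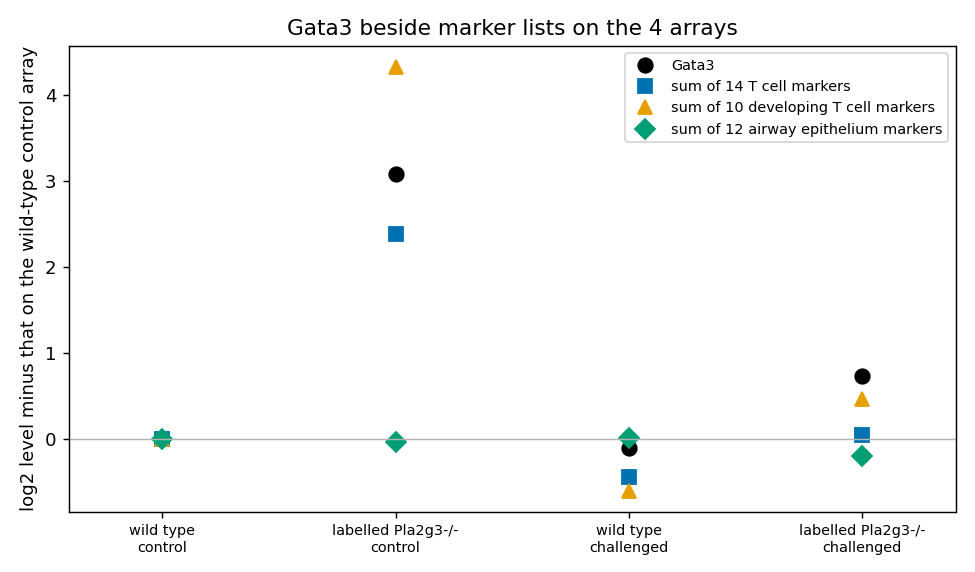
The log2 level of Gata3 and of the summed marker lists on each array (x axis), each minus its level on the wild-type control array (y axis). Gata3 and both T cell lists are highest on the control array labelled Pla2g3-/-, and the airway epithelial list stays near 0 on all 4 arrays.

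The 5 genes whose levels over the 4 arrays lay closest to Gata3, by Euclidean distance between mean-centred log2 values, were Scn2b, H1f5, Sla2, Arl5c and H2ac4, at distances of 0.21 to 0.37 among 16441 genes. Clone, predicted-gene and accession-type names were left out. So were genes not well above background on every array where the gene compared was. For this measure, a reading under the lowest signal well above background on an array was set to that signal, which applies to Il13 and Il5 on both control arrays. Their distances therefore rest on floor values for 2 of 4 arrays, and the order of their neighbours is not settled. With that limit, the genes near Il13 were the chemokine genes Ccl7 and Ccl3, Lrg1, Cxcl10 and Cstdc4, among 16608 genes. Ccl7 read 40.0, 40.8, 160 and 1391 units on the wild-type control array, the control array labelled Pla2g3-/-, the wild-type challenged array and the challenged array labelled Pla2g3-/-. Those near Il5 were Cstdc4, Il13, Ccl7, Ccl3 and Kcnj15. Nearest to the brighter Il4ra probe were Bhlhe22, Svs5, Magea6, Rhobtb2 and Myd88, at 0.06 to 0.14. Bhlhe22, Svs5 and Magea6 read only 10.9 to 38.7 units, where the lowest signal well above background was 7.98 to 11.2 units. Likeness over 4 arrays is a description of these arrays.

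Counted together, 2 of the 8 genes with a value were at least 2-fold higher on challenge in wild type (Il5 and Il13), where 1.81% of all genes were, and none was lower, against 1.68% of all genes. On challenge in cells labelled Pla2g3-/-, 5 of 9 were higher (Il4, Il5, Il9, Il13 and Il4ra), against 3.85% of all genes, and Gata3 was lower, against 3.4%. Between the control arrays only Gata3, of 6 with a value, was higher, against 3.19% of all genes, and none was lower, against 1.8%. Between the challenged arrays 4 of 9 were higher in cells labelled Pla2g3-/- (Il4, Il5, Il9 and Il13), against 3.81%, and none was lower, against 2.46%. For the difference between the challenge differences, 2 of 6 were higher (Il4 and Il4ra), against 2.81%, and Gata3 was lower, against 2.7%. The medians over the genes measured on both arrays were −0.01, 0.06, −0.18 and 0.78 in the 4 pairwise comparisons, against −0.03, −0.06, −0.02 and −0.05 over all genes. The comparisons share arrays: the challenged array labelled Pla2g3-/- enters every count of more than 2.

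**Figure D4:**
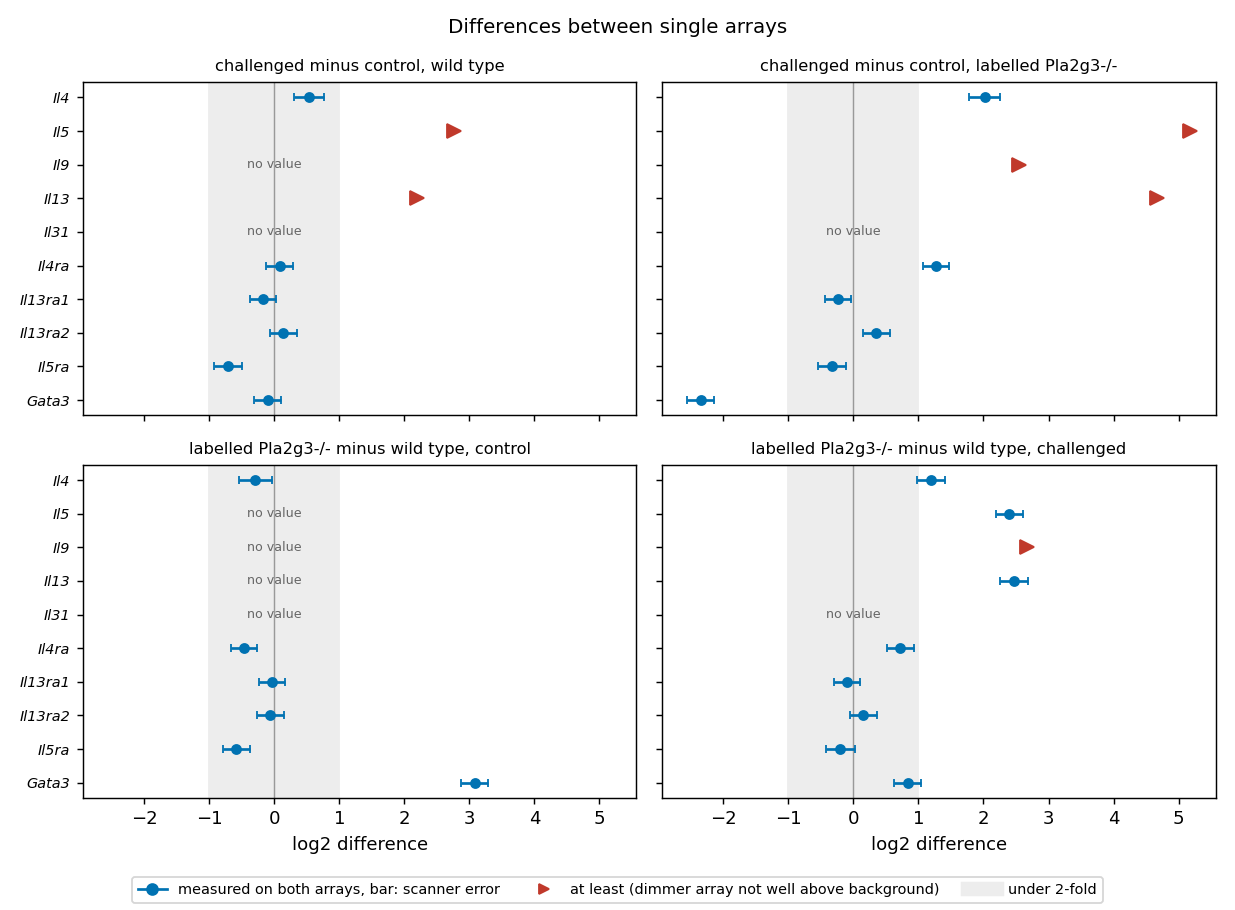
The log2 difference (x axis) of each gene (y axis) in the 4 pairs of arrays; bars are the scanner's error, triangles are bounds and the grey band is under 2-fold. The cytokine genes lie to the right in both panels that hold the challenged array labelled Pla2g3-/-, and Il13ra1, Il13ra2 and Il5ra stay inside the band in all 4.

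A single model over all 4 arrays (limma, genotype plus challenge, 1 residual degree of freedom, genes well above background on at least 2 arrays) called none of the 8 genes it could test. For the average challenge effect, Il5 had 4.38 (SE 0.47, unadjusted p = 0.000677, Benjamini-Hochberg adjusted p = 0.191 by limma) and Il13 5.56 (SE 0.68, adjusted p = 0.197 by limma). Il4 had 1.28 (SE 0.42, adjusted p = 0.316 by limma). These 3 were the genes with an unadjusted p under 0.05. The Il5 and Il13 estimates use control readings that were not well above background. Both genes passed the filter only through the challenged arrays, where they were high. Their p-values for challenge are therefore no support for an effect. For the average genotype effect, Gata3 had 1.96 (SE 0.57, adjusted p = 0.340 by limma) and Il5 1.58 (SE 0.47, adjusted p = 0.342 by limma), and these 2 had an unadjusted p under 0.05. The Il5 genotype estimate has the limits given above, so its p-value is no support for an effect either. Of 23642 genes tested, the model called 1 (0.00423%) for challenge and 0 (0.0%) for genotype, with 3469 and 2783 at an unadjusted p under 0.05. It takes any difference between the genotypes in their response to challenge as error.

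Il4, Il13 and Il5 lie in 1 cluster on chromosome 11, in the order Il4, Il13, Rad50, Il5. The Il13 probe lies 18.8 kb and the Il5 probe 112.4 kb from the Il4 probe on the mm9 build of the array's annotation. Within 500 kb of either end the array held 28 other genes or transcripts. None of the 27 with a value was 2-fold higher on challenge in cells labelled Pla2g3-/-, and none of 26 was higher between the challenged arrays. The shares over all genes were 3.85% and 3.81%. Rad50, a DNA repair gene between Il13 and Il5 that holds the locus control region of the cytokine genes, differed by −0.28 and −0.10 in these comparisons. Kif3a, a ciliary motor gene next to Il4, differed by −0.08 and −0.11, and Irf1, an interferon-regulated transcription factor beyond Il5, by 0.26 and 0.25. Slc22a4, a carnitine and ergothioneine transporter, was lower on challenge in cells labelled Pla2g3-/- (−1.21). Leap2, an antimicrobial peptide gene, was lower in challenged cells labelled Pla2g3-/- than in wild-type challenged cells (−1.23). Within this window the 2-fold differences in these comparisons were thus those of Il4, Il13 and Il5 and, in the other direction, of these 2 neighbours. The cytokine genes Csf2 and Il3, set beside this locus by name, are not among the 28. They were 2.85 and 2.34 higher on challenge in cells labelled Pla2g3-/-. Between the challenged arrays they were 2.34 and 1.25 higher. On challenge in wild type, 1 of 26 neighbours was 2-fold higher, the transcript ENSMUST00000084653 (1.08), beside Il5 and Il13. The share over all genes was 1.81%. Rad50, Kif3a and Irf1 are named for their place. Slc22a4, Leap2 and the transcript, and Csf2 and Il3 outside the 28, are named because they passed 2-fold, after their values were seen.

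**Figure D5:**
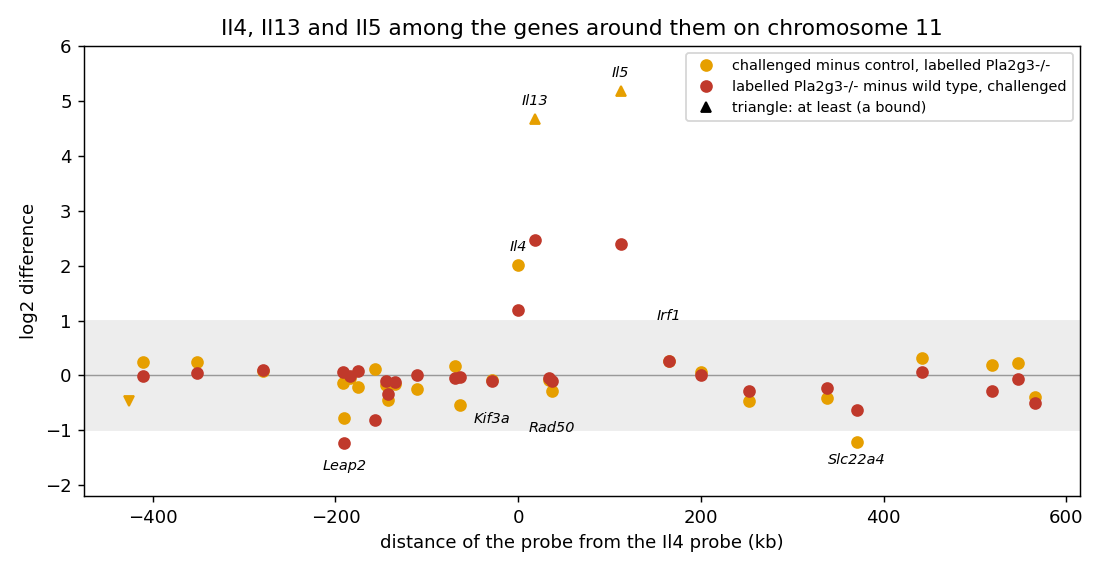
The log2 difference (y axis) of Il4, Il13, Il5 and the genes around them against the distance of their probes from the Il4 probe (x axis, kb), for 2 comparisons that share the challenged array labelled Pla2g3-/-; triangles are bounds and the grey band is under 2-fold. Il4, Il13 and Il5 stand above the band and the neighbours shown lie within it or below it.

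The 250 bases before the first start of 4 cytokine genes are given here from RefSeq (GRCm38.p6 build), 5′ to 3′ on the gene's strand. These 4 were at least 2-fold higher on challenge in cells labelled Pla2g3-/- and between the challenged arrays. Capitals mark AGATA, the core letters bound by GATA factors, and GGAAA, the core bound by NFAT, on either strand.

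Il4, chr11:53618666-53618915, minus strand: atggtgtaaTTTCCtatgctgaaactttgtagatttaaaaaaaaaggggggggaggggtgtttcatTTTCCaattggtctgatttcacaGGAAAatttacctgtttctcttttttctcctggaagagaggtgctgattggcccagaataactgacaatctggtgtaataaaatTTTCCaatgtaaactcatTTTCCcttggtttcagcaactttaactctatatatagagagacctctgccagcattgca
Il13, chr11:53634703-53634952, minus strand: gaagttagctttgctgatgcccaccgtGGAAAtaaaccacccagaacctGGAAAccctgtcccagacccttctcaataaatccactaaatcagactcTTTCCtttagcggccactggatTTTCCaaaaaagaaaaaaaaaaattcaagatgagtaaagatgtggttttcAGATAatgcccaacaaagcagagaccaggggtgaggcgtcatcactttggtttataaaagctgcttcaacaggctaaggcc
Il5, chr11:53720544-53720793, plus strand: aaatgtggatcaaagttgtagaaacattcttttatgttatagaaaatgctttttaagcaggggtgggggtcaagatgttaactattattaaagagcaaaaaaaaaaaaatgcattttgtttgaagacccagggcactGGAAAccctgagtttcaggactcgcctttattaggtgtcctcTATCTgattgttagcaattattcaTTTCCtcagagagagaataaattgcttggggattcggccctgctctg
Il9, chr13:56482258-56482507, minus strand: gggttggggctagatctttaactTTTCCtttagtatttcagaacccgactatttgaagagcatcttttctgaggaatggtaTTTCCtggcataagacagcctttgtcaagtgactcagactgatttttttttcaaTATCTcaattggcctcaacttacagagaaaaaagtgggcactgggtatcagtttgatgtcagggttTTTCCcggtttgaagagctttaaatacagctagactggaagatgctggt

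GGAAA matched 5 times before Il4, 4 times before Il13, 2 times before Il5 and 3 times before Il9, and is found in 55.6% of 32851 promoter windows of the same length. AGATA matched 1 time each before Il13, Il5 and Il9 and not before Il4, against 26.6% of windows. Only the Il13 match extends to AGATAA, which 9.99% of windows hold. The STAT6 motif, TTC and GAA with 4 free bases between them, matched 1 time each before Il4 and Il9 (5.85% of windows), and the AP-1 motif TGANTCA before Il9 (6.75%). AGATA lies within AGATAA, so those counts overlap. Genes other than these 4 had matches too. Il13ra2 and Il5ra reached 2-fold in no pair of arrays. The window of each held the longer GATA motif, the AP-1 motif and the NFAT core. Those of Il31 and Il13ra1 held none of the 5 motifs. A match is a description of the letters and not of binding.

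The receptor partners and signalling genes of these cytokines were higher mainly where the cytokines were. Of 20 such genes, 3 were at least 2-fold higher on challenge in wild type, 6 on challenge in cells labelled Pla2g3-/-, 1 between the control arrays and 7 between the challenged arrays, and none was lower in any. Of all genes, 1.81%, 3.85%, 3.19% and 3.81% were higher in these 4 comparisons, and 1.68%, 3.4%, 1.8% and 2.46% lower. Cish and Socs3, feedback inhibitors that STAT5 and STAT3 induce, were 1.02 and 1.06 higher on challenge in wild type and 3.36 and 3.10 higher in cells labelled Pla2g3-/-. Csf2rb, the beta chain of the receptors of IL-5, IL-3 and GM-CSF, differed by 0.34 in wild type, and 2.48 in the cells labelled Pla2g3-/-. The list's medians were small, at 0.06, 0.13, −0.10 and 0.19.

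Other T helper cytokines were also higher on the challenged array labelled Pla2g3-/-. Of 12 with a value, 1 was 2-fold higher on challenge in wild type, 7 on challenge in cells labelled Pla2g3-/- and 8 between the challenged arrays, and none was lower in these. Of all genes, 1.81%, 3.85% and 3.81% were higher in these comparisons, and 1.68%, 3.4% and 2.46% lower. Il17a, the defining cytokine of T helper 17 cells, was 4.90 higher on challenge in cells labelled Pla2g3-/- and 4.03 higher between the challenged arrays, against 0.88 on challenge in wild type. Il6 was at least 4.73 higher in the first of these comparisons and 3.01 higher in the next, and Il2, the T cell growth factor, 3.03 and 2.28. The high readings on the challenged array labelled Pla2g3-/- were therefore not limited to type 2 cytokines. Neutrophil markers were also higher there, with 6 of 9 at least 2-fold above wild-type challenged cells (median 1.66), and so were 4 of 9 macrophage markers (median 0.91). The share over all genes was 3.81%. The part of these cells in the cytokine values was not tested. Mast cell and basophil markers, from cells that also make IL-4 and IL-13, had none of 10 genes with a value 2-fold different in any of the 4 comparisons. For a list of 10 this is near the share over all genes, 1.68% to 3.85% in each direction. Of these markers, Ms4a2 was not well above background on any array. Mcpt8 read 5.90 to 13.7 units, and on the wild-type control array it was not well above background.

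Of 18 transcription factors of type 2 lymphocytes and regulators of their cytokines, Gata3 among them, none differed 2-fold on challenge in wild type. The shares over all genes there were 1.81% higher and 1.68% lower. On challenge in cells labelled Pla2g3-/-, 1 was higher and 3 were lower, against 3.85% and 3.4% of all genes. Between the control arrays 3 were higher and none was lower, against 3.19% and 1.8%. Between the challenged arrays 1 was higher and none was lower, against 3.81% and 2.46%. Besides Gata3, Gfi1, a repressor used by lymphoid progenitors and group 2 innate lymphoid cells, was 3.66 higher in control cells labelled Pla2g3-/- than in wild-type control cells and differed by −3.05 on challenge in cells of that label. Both were highest on the array with the most T cell marker signal.

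Surface and effector genes of type 2 lymphocytes and group 2 innate lymphoid cells gave a mixed picture. Of 13 with a value, none was 2-fold different on challenge in wild type, against 1.81% of all genes higher and 1.68% lower. In cells labelled Pla2g3-/-, 2 were higher, against 3.85%. Between the control arrays 5 were higher and 1 lower, against 3.19% and 1.8% of all genes, and between the challenged arrays 5 were higher, against 3.81%. Areg, an epidermal growth factor receptor ligand that these cells and the epithelium make, was 2.69 higher on challenge in cells labelled Pla2g3-/-, from a control level that was −2.35 against wild type. Ccr4, a homing receptor of T helper 2 cells, was 2.26 higher between the control arrays and 1.5 higher between the challenged arrays, and Arg1 0.37 and 2.15 higher.

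Epithelial genes known to respond to IL-13 were higher more often than lower with challenge, and went both ways between the challenged arrays and between the control arrays. Of 25 with a value, 7 were 2-fold higher and 1 lower on challenge in wild type, and 12 were higher in cells labelled Pla2g3-/-. The shares over all genes were 1.81%, 1.68% and 3.85%. Between the challenged arrays, where Il13 differed 5.51-fold, 5 were higher and 2 lower, with a median of 0.38. The shares over all genes there were 3.81% and 2.46%. Between the control arrays 4 of 24 were higher and 4 lower, against 3.19% and 1.8% of all genes. Slc26a4, the anion exchanger pendrin, was 4.62 higher on challenge in wild type, and 4.19 in the cells labelled Pla2g3-/-. It differed by −3.97 between the challenged arrays and already by −3.54 between the control arrays. Retnlb, a goblet cell product, was at least 2.92 and 3.34 higher on challenge and differed by 0.39 between the challenged arrays. Chil4, a chitinase-like protein, was 3.56 higher on challenge in wild type, and 0.09 in the cells labelled Pla2g3-/-, whose control cells were already 3.98 above wild type.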

How the data were processed

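RNA of 4 groups was hybridised to 4 single-colour Agilent arrays, 1 per group, from 200 ng per labelling per the labels' protocols. Each deposited scanner file gives a processed intensity for every spot; per the file headers, Agilent Feature Extraction 11.5.1.1 made it by subtracting background. The authors' deposited series matrix holds a ratio, equal to the processed signal divided by each array's 75th percentile, checked against the scanner values. From 43020 non-control spots, log2 processed signal minus that percentile was taken. Outlier spots (128 to 155 per array) were left out, spots of a probe averaged, and a gene represented by its brightest probe. Symbols were updated through RefSeq accessions for 28330 of 39429 probes. The genes and lists were chosen with earlier results of these data known. Named list genes are the 3 with the largest difference per list, except 1 that is not reported here. Groups came from the labels. The number of arrays limits precision, and the sources used here do not say whether the pooled samples were single mice. Pairs of arrays had no test. limma 3.58.1 in R 4.3.3 fitted the additive model (Benjamini-Hochberg, threshold 0.05), tested on simulated data. Position on the slide and group cannot be told apart. Alternatives were normexp, quantile normalization, other detection filters, another percentile, the series matrix, probe averaging and the other genotype's control.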

Additional observations from a re-analysis of the deposited data

How the results depend on the processing

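Of 280 differences of single genes recomputed under alternatives, 246 moved by less than their error, 33 moved further and 1 reversed: the Gata3 challenge difference in cells labelled Pla2g3-/- became 0.73 against the other genotype's control array. Quantile normalization, the percentile over detected probes and the series matrix moved none of them. The 38 from the series matrix repeat the scanner values, and the 30 from genes detected on all 4 arrays only select among them. Neither set could move. Averaging probes could move only Il4ra, the only member with more than 1 probe. The laxer detection call could not move a difference already measured on both arrays. The 246 therefore overstate how stable the differences are. The error of a bound includes the reading not well above background. Il13 on challenge in wild type, 2.19 and then 0.84 under normexp with an error of 1.44, therefore counts as unmoved. Under normexp, members at least 2-fold higher numbered 1 (challenge, wild type), 3 (challenge, labelled Pla2g3-/-), 2 (challenged arrays) and 1 (difference of challenge differences), and all genes higher and lower 128 and 57, 378 and 319, 288 and 147, and 263 and 298, with 357 and 97 between the control arrays. With only genes well above background on all 4 arrays, fewer genes are tested: members higher were 0, 2 and 1 in the first 3 of these, and all genes 247 and 218 (challenge, wild type), 252 lower (control arrays), and 609 and 376 (challenged arrays). With the scanner's laxer detection call, which treats dim readings as measured, 1 member was lower on challenge in wild type and 4 were higher in the difference of challenge differences. All genes then numbered 777 and 723 (challenge, wild type), 1305 lower (challenge, labelled Pla2g3-/-), 839 lower (control arrays), 1227 lower (challenged arrays), and 1001 and 1129 (difference of challenge differences). Averaging probes left 1 member higher in that last comparison. Against the other genotype's control, 1 member (Gata3, −3.18) and 971 genes were lower on challenge in wild type, and 0 members were lower in cells labelled Pla2g3-/-. The limma model called 0 genes higher for challenge without a variance trend, 4 with normexp, 5 with genes detected on all 4 arrays and 2 with quantile normalization. For genotype it called 3 higher and 7 lower with normexp, and 1 and 7 with genes detected on all 4 arrays. It called no member under any of these. Leaving out the 3 close Il4 spots, chosen after seeing the data, put the Il4 challenge difference at 2.36 in cells labelled Pla2g3-/-. No paired analysis was possible because each group has 1 array.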
